A study of Mus musculus with 9 samples.

Results

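The solute carriers are membrane transporters whose gene symbols in mouse begin with Slc followed by a family number. Of the 24346 gene symbols measured, 373 had such a symbol, and the 163 whose level averaged 1 FPKM or more across all 9 libraries are described here. FPKM is a density of sequenced fragments, scaled to the length of the exons and to the mapped total of the library, so levels of different genes can be set side by side. Among the 163, 4 genes carry the symbol without being transporters (Slc9a3r1, Slc7a6os, Slc2a4rg-ps and Slc4a1ap), which leaves 159 transporters. The floor of 1 FPKM used the level only, and the symbol did not depend on any comparison.

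RNA-seq had been performed on primary splenic B cells of C57BL6 wild-type mice, sorted into follicular (FO) B cells and age-associated B cells (ABCs). There were 3 libraries of FO B cells from mice aged 8 weeks, FO B (Young), 3 of FO B cells from mice aged 50 weeks, FO B (Aged), and 3 of ABCs from mice aged 50 weeks, ABCs (Aged). The libraries of a group came from separate mice according to the study, and no agent, transgene or deletion was involved in any of these groups. Whether FO B (Aged) and ABCs came from the same mice is not given in the sources used here. FO B cells were gated as CD23+ and ABCs as CD23-, CD21lo, CD11b+ and CD11c+, within B220hi CD43- B cells.

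Solute carriers move nutrients, ions, metals, vitamins and metabolic intermediates across the plasma membrane and the membranes of organelles. Members of the Slc25 family sit in mitochondria, the Slc35 family supplies the Golgi apparatus and endoplasmic reticulum with nucleotide sugars, and several Slc15, Slc29, Slc36 and Slc38 members export small molecules from endosomes and lysosomes. In lymphocytes, amino acid, glucose and iron uptake rises with activation, and lysosomal carriers such as Slc15a4 and Slc29a3 are known for their part in signalling by nucleic acid-sensing Toll-like receptors.

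The libraries held between about 7650000 and 9300000 mapped reads, as judged from the step that a single read makes in low FPKM values. The 163 genes summed to between 3849 and 3908 FPKM in FO B (Young), 3881 and 3912 FPKM in FO B (Aged), and 4176 and 4245 FPKM in ABCs. Fcer2a (CD23) and Cr2 (CD21) were low in ABCs and Itgam (CD11b), Itgax (CD11c) and Tbx21 were high, in the direction of the gates. Summed FPKM of 16 macrophage and monocyte markers ran from 97.4 to 115.7 in ABCs and from 26.9 to 33.5 in FO B (Aged), most of it Ly6c2. Of these markers 7 were tested, and Ly6c2, Cd68 (10.7 against 4.17 FPKM) and Vcam1 (2.69 against 0.497 FPKM) were called higher in ABCs and 0 lower, while Csf1r, Mertk, Fcgr1 and Cd14 were below 1 FPKM in mean in both groups. Of 10 T cell markers only Cd3g was tested, at 9.63, 37.0 and 4.93 FPKM in ABCs and 0 in FO B (Aged), while Cd3e, Cd3d, Cd4 and Cd8a were below 1 FPKM in mean in both. The part of these transcripts in the Slc values was not tested. Summed FPKM of 6 plasma cell markers ran from 955 to 1260 in ABCs and from 426 to 453 in FO B (Aged), most of it Mzb1 (means of 944 and 316 FPKM). Of the 5 tested, 4 were called higher in ABCs and 0 lower, while Tnfrsf17 was below 1 FPKM in mean in both groups. Of 6 B lineage markers, 0 were called higher and 2 lower in ABCs, Pax5 (20.3 against 29.6 FPKM) and Ebf1 (41.7 against 69.2 FPKM). Of 7 dendritic cell markers 2 were tested: Zbtb46 was called higher (3.17 against 0.853 FPKM) and Flt3 was not called (0.765 against 2.18 FPKM). Siglech, not tested, measured 1.13 against 0.120 FPKM. The part of these transcripts in the Slc values was not tested either. In bulk RNA, more cells of a type and more RNA per cell cannot be told apart. ABCs library 3 was the farthest of its group from the other 2 for 92 of the 163 genes (56.4%), against 46.2% of all genes tested, so counts are also given without it.

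Mean levels of Slc genes ran from 1.097 to 636 FPKM, and a few mitochondrial carriers made up much of the signal. The median of the 163 means was 8.96 FPKM, with quartiles at 4.78 and 19.95 FPKM, and 8 genes reached a mean of 100 FPKM. Slc25a5 (adenine nucleotide translocase 2), which exchanges ADP and ATP across the inner mitochondrial membrane, was the highest. It alone made up 16.1% to 18.02% of the summed Slc signal in the FO B libraries and 12.6% to 14.4% in ABCs. Next came the phosphate carrier Slc25a3 (266 FPKM), the sugar exporter Slc50a1 (251 FPKM), the choline transporter-like protein Slc44a2 (182 FPKM) and the glutamine importer Slc1a5 (154 FPKM). The oxoglutarate carrier Slc25a11 (113 FPKM), the other adenine nucleotide translocase Slc25a4 (101.05 FPKM), Slc15a4 (74.8 FPKM) and Slc35a4 (71.5 FPKM) were also among the 10 highest.

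Families differed in how many of their symbols reached the floor. All 4 Slc29 nucleoside carriers, all 4 Slc37 sugar phosphate carriers and all 3 Slc43 carriers passed, as did 35 of 47 Slc25 and 19 of 27 Slc35 symbols. Only 2 of 20 Slc6 neurotransmitter and osmolyte carriers and 2 of 26 Slc22 organic ion carriers passed. Just inside the floor were Slc36a1 (1.097 FPKM), Slc22a17 (1.12 FPKM) and Slc39a14 (1.15 FPKM), and just outside it Slc46a1 (0.988 FPKM), Slc25a23 (0.980 FPKM) and Slc12a8 (0.931 FPKM). Of the 210 symbols below it, 30 were at 0 in every library. Slc39a4, Slc6a12, Slc36a4 and Slc22a17 had a mean below 1 FPKM in both FO B groups and so passed through their level in ABCs. Likewise Slc40a1, Slc29a2, Slc16a1, Slc12a7, Slc30a4, Slc29a4 and Slc4a11 had a mean below 1 FPKM in ABCs and passed through FO B cells, Slc40a1 through FO B (Young) only. For these 11 genes values are given with no test, and counts are also given without them.

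The first comparison asked which Slc genes differ between ABCs and FO B cells of mice of the same age. ABCs expressed more of the amino acid carriers Slc43a1 and Slc7a7, the choline carrier Slc44a1 and most listed carriers of endosomes and lysosomes. That list was chosen with earlier results of these data known. The zinc importer Slc39a11 was also higher, while Slc39a6 and Slc39a10 were not called. Slc6a12 and Slc39a4 were higher too, but had passed the floor through ABCs. ABCs expressed less of the glucose importer Slc2a3, the amino acid carriers Slc1a5, Slc38a2 and Slc43a2 and the mitochondrial iron importer Slc25a37. The monocarboxylate carriers Slc16a6 and Slc16a7 were also lower, as was Slc16a1, which had passed the floor through FO B cells. The call of Slc1a5 was lost in 8 of 17 alternatives in processing, and that of Slc16a7 in 7 of 16. With limma on log2(FPKM + 1) and a Benjamini-Hochberg FDR under 0.05 over all genes tested, 66 of the 163 (40.5%) were called, 43 higher and 23 lower in ABCs, against 35.3% of the 10375 genes tested. The share called higher was 26.4%, against 18.7% of all genes, and the share called lower 14.1%, against 16.7%. At an FDR under 0.01 there were 45 (27.6%, against 18.6%). Without the 11 genes that passed the floor through one cell type, 39 of 152 were higher and 18 lower. Without ABCs library 3, 37 of 163 were higher and 21 lower. The share called was then 35.6%, against 34% of all genes, which is closer than with all libraries.

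The split between higher and lower depended on the scaling between libraries. Of the called genes, 65.2% were higher as deposited, 55.2% after quantile normalization and 79.4% after scaling to the upper quartile, which moved the median log2 fold change of all genes from -0.02 to 0.15. The median log2 fold change of the 163 was 0.10 as deposited and that of all genes -0.02. The 3 libraries of ABCs lay above all 3 of FO B (Aged) for 58 genes (35.6%, against 25.7% of all genes) and below them for 39 (23.9%, against 26.6%). A change beyond 2.3 on the log2 scale with an FDR under 0.01, a stricter pair of limits, was reached by Slc39a4 and Slc6a12 upwards (1.23%, against 1.47% of all genes) and by Slc16a6 downwards (0.613%, against 0.424%). Both upward genes had passed the floor through ABCs. Their share, their passing of the FDR limit and the count of 3 that includes them are therefore a description and no test of them. The count of 3 became 8 and 9 with pseudocounts of 0.1 and 0.01, 1 without FO B (Aged) library 2, and 0 without library 1 or library 3 of that group.

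**Figure D1:**
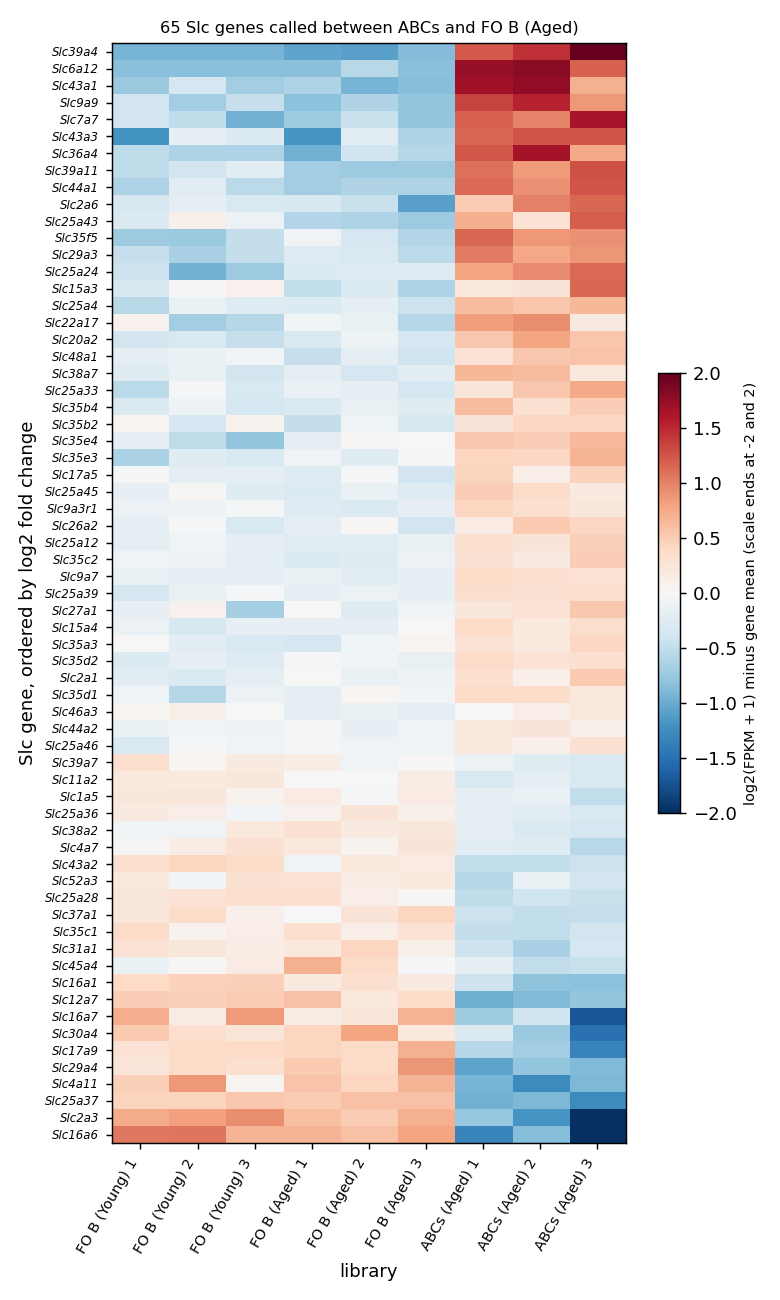
Heat map of 65 of the 66 Slc genes called between ABCs and FO B (Aged), ordered from the largest rise to the largest fall, in all 9 libraries (columns). Colour gives log2(FPKM + 1) minus the mean of the gene over the 9 libraries. The 3 ABC columns stand apart from both FO B groups, from FO B (Aged) by the choice of genes. Library 3 of ABCs holds the deepest colours for Slc39a4, Slc2a3, Slc16a6, Slc16a7 and Slc30a4.

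Of 24 metal and heme carriers, 3 were higher and 4 lower in ABCs (12.5% and 16.7%, against 18.7% and 16.7% of all genes tested). Only 2 were lower without ABCs library 1 or library 2, and without the genes that passed through one cell type, 2 of 21 were higher and 3 lower. Slc39a4 (ZIP4), which imports zinc across the plasma membrane, lies on chromosome 15 at 76612383 to 76617384 of GRCm38 on the minus strand. It measured 4.47, 5.47 and 19.5 FPKM in the 3 ABC libraries, 0.122, 0.1003 and 0.279 FPKM in FO B (Aged), and 0.223, 0.226 and 0.225 FPKM in FO B (Young). All ABC libraries lay above all FO B libraries, and library 3 was several times above the other ABC libraries. In whole reads this was 74, 100 and 325 in the ABC libraries. Their sum of 499 stood against 9 over FO B (Aged), a ratio of 58.4 per unit of depth. The fitted log2 difference was 2.95, and over the alternatives it ran from 2.35 to 5.599, highest with the smallest pseudocount. Slc39a11 (ZIP11) measured 12.6, 10.4 and 14.3 FPKM in ABCs against 2.94, 2.86 and 2.85 FPKM in FO B (Aged), a log2 fold change of 1.78 (SE 0.13, FDR = 0.000225). The heme carrier Slc48a1 rose from 16.3 ± 1.66 to 29.7 ± 3.16 FPKM (SD, n = 3), with a log2 fold change of 0.82 (SE 0.11, FDR = 0.00202).

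The zinc exporter of vesicles Slc30a4 measured 1.52, 0.838 and 0.0943 FPKM in ABCs against 3.14, 4.33 and 2.52 FPKM in FO B (Aged), a log2 difference of -1.31. The ABC libraries lay below all of FO B (Aged), with library 3 the lowest. The copper importer Slc31a1 fell from 14.0 ± 1.71 to 8.06 ± 0.988 FPKM (log2 fold change -0.73, SE 0.13, FDR = 0.00592). The divalent metal transporter Slc11a2 fell from 9.21 ± 0.615 to 7.22 ± 0.376 FPKM (FDR = 0.0456) and Slc39a7 from 50.3 ± 3.95 to 41.7 ± 2.82 FPKM (FDR = 0.0483). The call of Slc11a2 was lost in 9 of 17 alternatives, among them the removal of any single library. For Slc39a7, 80.7% of exon bases are shared with another annotated gene, and the library kit did not mark the strand. Of the zinc carriers studied in B cells, Slc39a10 measured 5.99 ± 0.761 FPKM in ABCs against 6.52 ± 1.37 FPKM in FO B (Aged), with a log2 fold change of -0.09 (SE 0.17, FDR = 0.693). Slc39a6 measured 11.8 ± 1.19 and 8.64 ± 1.59 FPKM (log2 fold change 0.42, SE 0.14, FDR = 0.0603), and Slc30a1 2.36 ± 0.951 and 2.06 ± 0.290 FPKM (FDR = 0.769).

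Of 23 amino acid and peptide carriers, 8 were higher and 3 lower in ABCs (34.8% and 13%, against 18.7% and 16.7% of all genes). Without Slc6a12 and Slc36a4, which passed the floor through ABCs, 6 of 21 were higher and 3 lower. Slc6a12, a sodium-dependent carrier of betaine and GABA, lies on chromosome 6 at 121343076 to 121365775 on the plus strand. It measured 4.97, 5.202 and 3.03 FPKM in ABCs against 0, 0.215 and 0 FPKM in FO B (Aged), and was at 0 in all 3 FO B (Young) libraries. In whole reads, 266 over the ABC libraries stood against 5 over FO B (Aged), all 5 in library 2, a ratio of 56.1 per unit of depth. The fitted log2 difference was 2.31, and it ran from 2.201 to 7.25 over the alternatives, again highest with the smallest pseudocount.

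Slc43a1 (LAT3), which carries branched-chain amino acids without sodium, measured 21.4, 23.1 and 10.53 FPKM in ABCs against 3.58, 2.68 and 2.90 FPKM in FO B (Aged), a log2 fold change of 2.19 (SE 0.28, FDR = 0.00175). Slc7a7 (y+LAT1), which exchanges cationic for neutral amino acids in a pair with Slc3a2, measured 18.3, 15.9 and 25.7 FPKM against 4.21, 5.23 and 3.91 FPKM, a log2 fold change of 1.92 (SE 0.19, FDR = 0.000596). Its heavy chain Slc3a2 measured 48.6 ± 5.04 FPKM in ABCs against 55.5 ± 1.44 FPKM in FO B (Aged), with a log2 fold change of -0.19 (SE 0.08, FDR = 0.120). Slc43a3, a relative of Slc43a1 that carries purine nucleobases, measured 10.497, 11.4 and 11.5 FPKM against 1.29, 3.51 and 2.40 FPKM, a log2 fold change of 1.89 (SE 0.24, FDR = 0.00162). For these 3 genes the ABC libraries lay above every FO B library of either age.

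Lymphocytes use Slc1a5, Slc38a1, Slc38a2, Slc7a5 and Slc7a6 to take up neutral amino acids. Of these, 0 were called higher and 2 were called lower, beside 18.7% higher and 16.7% lower over all genes tested. The glutamine importer Slc1a5 measured 133, 139 and 108 FPKM in ABCs against 170, 148 and 171 FPKM in FO B (Aged), a log2 fold change of -0.37 (SE 0.11, FDR = 0.0411). Its call was lost in 8 of 17 alternatives, among them scaling to the upper quartile and the removal of ABCs library 1 or 3 or FO B (Aged) library 1 or 3. Slc38a2 (SNAT2) fell from 55.3 ± 2.53 to 38.8 ± 2.29 FPKM (log2 fold change -0.50, SE 0.07, FDR = 0.00247), a call lost after scaling to the upper quartile. Slc43a2 (LAT4) fell from 7.46 ± 0.845 to 4.67 ± 0.161 FPKM (log2 fold change -0.57, SE 0.11, FDR = 0.00933), while its relatives Slc43a1 and Slc43a3 rose. Slc7a5 (LAT1) measured 3.41 ± 1.03 and 5.18 ± 0.791 FPKM (log2 fold change -0.51, SE 0.20, FDR = 0.0912), Slc38a1 18.4 ± 2.18 and 21.8 ± 0.590 FPKM (FDR = 0.103), and Slc7a6 7.99 ± 0.746 and 9.11 ± 0.337 FPKM (FDR = 0.223). The cystine importer Slc7a11 stayed below the floor, at 0 to 0.0748 FPKM in the 9 libraries.

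**Figure D2:**
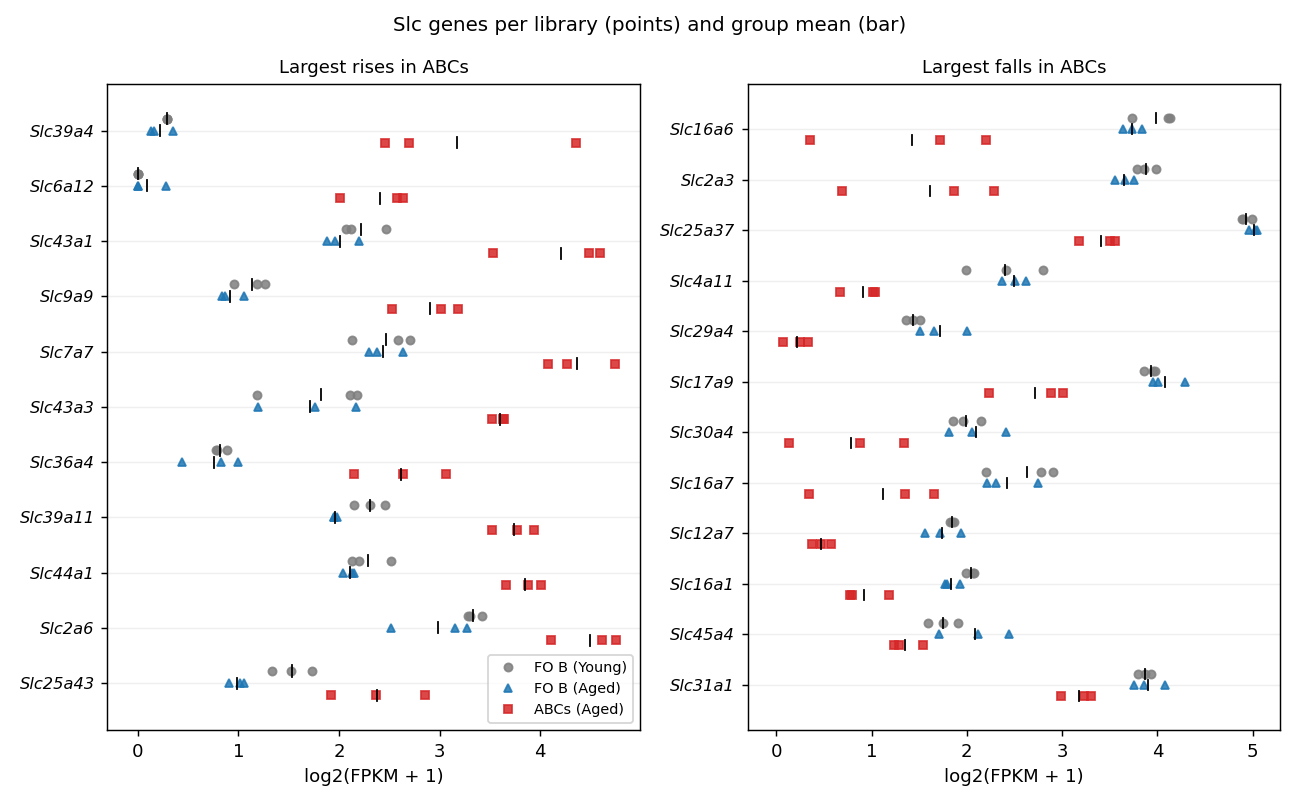
Levels of 11 of the 12 Slc genes with the largest rises (left) and the 12 with the largest falls (right) in ABCs, as log2(FPKM + 1) on the horizontal axis, in each library (points; circles FO B (Young), triangles FO B (Aged), squares ABCs) with the mean of each group (bar). The genes were chosen among those whose ABC libraries do not overlap FO B (Aged), and ABC libraries spread widely for Slc39a4, Slc16a6, Slc2a3 and Slc30a4.

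The list of endosomal and lysosomal carriers was chosen with earlier results of these data known, so its shares are a description. Of 12 listed carriers of endosomes and lysosomes, 11 passed the floor, and 8 of these were higher and 1 lower in ABCs (72.7% and 9.09%, against 18.7% and 16.7% of all genes). Their median log2 fold change was 0.57, against -0.02 over all genes tested. Without Slc36a4, which passed through ABCs, 7 of 10 were higher and 1 lower, and without ABCs library 3, 6 of 11 were higher and 0 lower. Slc36a4 (PAT4), an amino acid carrier, measured 5.22, 7.35 and 3.43 FPKM in ABCs against 0.356, 0.996 and 0.782 FPKM in FO B (Aged), a log2 difference of 1.86. Slc29a3 (ENT3), which lets nucleosides out of lysosomes, measured 23.5, 19.6 and 21.1 FPKM against 9.08, 8.75 and 7.32 FPKM, a log2 fold change of 1.25 (SE 0.11, FDR = 0.000447). Both sets of ABC libraries lay clear of every FO B library.

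Slc15a4, a lysosomal carrier of histidine and peptides needed for Toll-like receptor signalling in B cells, measured 97.8, 84.8 and 94.8 FPKM in ABCs against 65.6, 64.9 and 73.5 FPKM in FO B (Aged). Its log2 fold change was 0.44 (SE 0.08, FDR = 0.00728), and it held in all 17 alternatives. Its relative Slc15a3 measured 6.96, 7.23 and 14.3 FPKM against 3.92, 4.64 and 3.48 FPKM (log2 fold change 1.01, SE 0.26, FDR = 0.0257). The call of Slc15a3 was lost in 5 of 17 alternatives, including the removal of any single FO B (Aged) library, and 28.1% of its exon bases are shared with Tmem132a. Slc38a7 (log2 fold change 0.75), which exports glutamine from lysosomes, the heme carrier Slc48a1 (0.82) and the sialic acid exporter Slc17a5 (0.57) were also called higher. Slc46a3 rose from 17.2 ± 0.405 to 21.1 ± 1.66 FPKM (FDR = 0.0432), a call lost in 9 of 17 alternatives, and in FO B (Young) it measured 20.2 ± 0.889 FPKM. Slc38a9, the arginine sensor of the lysosomal membrane, measured 8.37 ± 1.44 and 6.21 ± 0.688 FPKM (FDR = 0.0861), and Slc36a1 1.15 ± 0.0580 and 1.02 ± 0.221 FPKM (FDR = 0.605). Slc11a1, the metal exporter of phagosomes, was below the floor, at 0.815, 0.790 and 0.751 FPKM in ABCs, at 0.411, 0 and 0.0537 FPKM in FO B (Aged) and at about 0.32 FPKM in FO B (Young). The macrophage marker sum given above was also higher in ABCs, and its part in these values was not tested.

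**Figure D3:**
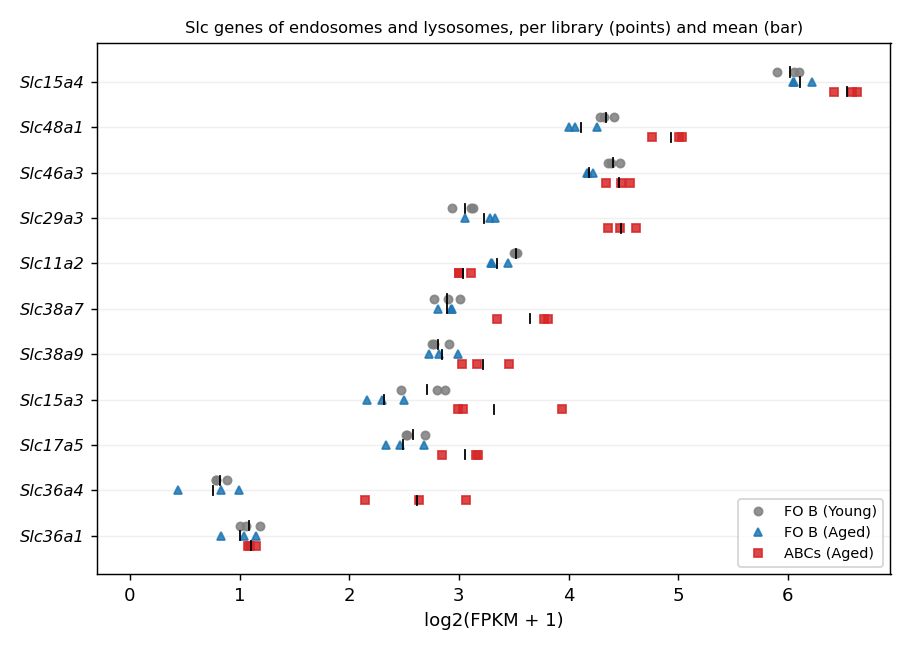
Levels of the 11 endosomal and lysosomal Slc genes above the floor, as log2(FPKM + 1) on the horizontal axis, in each library (points) with the mean of each group (bar), ordered by mean level. Squares of ABCs lie to the right of both FO B groups for Slc15a4, Slc48a1, Slc29a3, Slc38a7, Slc38a9, Slc15a3, Slc17a5 and Slc36a4, and to the left for Slc11a2.

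The Slc35 carriers of the Golgi apparatus and endoplasmic reticulum counted 9 higher and 1 lower of 19 (47.4% and 5.26%, against 18.7% and 16.7% of all genes), with a median log2 fold change of 0.31, against -0.02 over all genes. Slc35f5 measured 11.5, 9.29 and 9.62 FPKM in ABCs against 4.38, 3.47 and 2.78 FPKM in FO B (Aged), a log2 fold change of 1.30 (SE 0.16, FDR = 0.00142). Slc35b2, which brings the sulfate donor PAPS into the Golgi, rose from 27.6 ± 3.95 to 43.8 ± 2.76 FPKM (log2 fold change 0.65, SE 0.11, FDR = 0.00519). The UDP-sugar carrier Slc35b4 rose from 16.5 ± 0.850 to 27.4 ± 2.98 FPKM (log2 fold change 0.70, SE 0.10, FDR = 0.00249), and smaller rises were called for Slc35e4, Slc35e3, Slc35c2, Slc35a3, Slc35d2 and Slc35d1, between 0.39 and 0.62 on the log2 scale. The exception was the GDP-fucose carrier Slc35c1, at 18.7, 18.5 and 20.1 FPKM in ABCs against 33.4, 29.0 and 32.3 FPKM in FO B (Aged), a log2 fold change of -0.70 (SE 0.08, FDR = 0.00124). The CMP-sialic acid carrier Slc35a1 (22.2 ± 2.41 and 19.8 ± 1.11 FPKM) and Slc35b1, which brings ATP into the endoplasmic reticulum (66.9 ± 8.46 and 67.1 ± 5.25 FPKM), were not called. The plasma cell marker sum, most of it Mzb1, was higher in ABCs too, and its part in the Slc35 values was not tested.

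Mitochondrial carriers counted 9 higher and 3 lower of 35 (25.7% and 8.57%, against 18.7% and 16.7% of all genes). The adenine nucleotide translocase Slc25a4 measured 149, 142 and 153 FPKM in ABCs against 79.1, 83.5 and 70.6 FPKM in FO B (Aged), a log2 fold change of 0.92 (SE 0.08, FDR = 0.000344). Its more abundant counterpart Slc25a5 measured 610, 593 and 526 FPKM against 664, 630 and 642 FPKM, without overlap, but its log2 fold change of -0.17 (SE 0.07) was not called (FDR = 0.128). Slc25a43, Slc25a24 (an ATP-magnesium and phosphate carrier), Slc25a33 (a pyrimidine nucleotide carrier), Slc25a45, Slc25a12 (an aspartate and glutamate carrier), Slc25a39 (a glutathione carrier) and Slc25a46 were higher by 0.27 to 1.39 on the log2 scale.

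Both mitoferrins, the mitochondrial iron importers, fell. Slc25a37 (mitoferrin 1) measured 10.3, 10.8 and 8.07 FPKM in ABCs against 30.2, 31.9 and 31.6 FPKM in FO B (Aged) and 28.7, 28.8 and 30.8 FPKM in FO B (Young), a log2 fold change of -1.60 (SE 0.11, FDR = 0.0002) that held in all 17 alternatives. Slc25a28 (mitoferrin 2) measured 10.96, 12.002 and 11.6 FPKM against 20.5, 17.7 and 16.4 FPKM, a log2 fold change of -0.61 (SE 0.10, FDR = 0.00498). Slc25a36, another pyrimidine nucleotide carrier, was the remaining fall (log2 fold change -0.38, FDR = 0.0144). The citrate carrier Slc25a1 measured 35.8 ± 3.98 and 35.4 ± 1.45 FPKM, the acylcarnitine carrier Slc25a20 15.1 ± 4.88 and 16.4 ± 3.29 FPKM, and Slc25a11 107 ± 4.04 and 115 ± 5.37 FPKM, none of them called.

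Among sugar carriers, relatives moved in opposite directions. Slc2a3 (GLUT3), a glucose importer of high affinity, lies on chromosome 6 at 122727809 to 122801640 on the minus strand and measured 3.86, 2.65 and 0.612 FPKM in ABCs against 11.6, 10.8 and 12.5 FPKM in FO B (Aged). In whole reads, 228 over the ABC libraries stood against 1169, a ratio of 0.206 per unit of depth (95% counting interval 0.178 to 0.237). The log2 fold change was -2.04 (SE 0.38, FDR = 0.0073). Slc2a1 (GLUT1), the glucose importer that lymphocytes raise on activation, measured 42.9, 36.3 and 48.8 FPKM in ABCs against 33.6, 30.4 and 31.4 FPKM, a log2 fold change of 0.41 (SE 0.11, FDR = 0.0314). The call of Slc2a1 was lost in 6 of 17 alternatives, among them the removal of ABCs library 1 or 3 or of any FO B (Aged) library. Slc2a6 (GLUT6) measured 16.3, 23.4 and 26.0 FPKM against 8.68, 7.88 and 4.74 FPKM (log2 fold change 1.51, SE 0.25, FDR = 0.00433). Among the sugar phosphate carriers, Slc37a1 fell from 9.004 ± 1.46 to 5.15 ± 0.127 FPKM (log2 fold change -0.69, SE 0.13, FDR = 0.0075), and Slc37a2 measured 14.3 ± 3.48 and 12.4 ± 3.59 FPKM (FDR = 0.567). The remaining fall, Slc45a4 (log2 fold change -0.74, SE 0.21, FDR = 0.0334), lost its call in 7 of 16 alternatives, among them the removal of any ABC library or of FO B (Aged) library 1 or 2. In all, 2 of 12 carriers of this group were higher and 3 lower (16.7% and 25%, against 18.7% and 16.7% of all genes), and 1 was higher and 2 lower without ABCs library 1 or library 3.

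Of the 4 monocarboxylate carriers above the floor, 3 were lower in ABCs and 0 higher (75% and 0%, against 16.7% and 18.7% of all genes), with and without ABCs library 3, and 2 of 3 were lower without Slc16a1, which passed the floor through FO B cells. Slc16a6 (MCT7) lies on chromosome 11 at 109450855 to 109473598 on the minus strand and shares 23.5% of its exon bases with other annotated genes. It measured 2.28, 3.60 and 0.275 FPKM in ABCs against 12.3, 11.4 and 13.3 FPKM in FO B (Aged), a log2 fold change of -2.31 (SE 0.44, FDR = 0.00769). Slc16a7 (MCT2), which carries pyruvate and lactate with high affinity, measured 1.54, 2.15 and 0.274 FPKM against 3.62, 3.94 and 5.70 FPKM (log2 fold change -1.30, SE 0.35, FDR = 0.0268). Its call was lost in 7 of 16 alternatives, including a pseudocount of 0.1 and the removal of any FO B (Aged) library. Slc16a1 (MCT1), the lactate carrier that rises with glycolysis, measured 1.27, 0.731 and 0.716 FPKM against 2.47, 2.80 and 2.42 FPKM (log2 difference -0.91). For each of these 3, library 3 was the lowest in ABCs, and all ABC libraries lay below FO B (Aged). Slc16a13 was not called. The lactate exporter Slc16a3 (MCT4) was below the floor, at 1.46, 0.507 and 1.44 FPKM in ABCs against 0.395, 0.139 and 0.258 FPKM in FO B (Aged).

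Carriers of ions and protons counted 3 higher and 3 lower of 16 (18.8% each, against 18.7% and 16.7% of all genes), and 3 higher and 1 lower of 14 without Slc4a11 and Slc12a7, which passed the floor through FO B cells. Without ABCs library 2 or library 3, 2 were higher. Slc9a9 (NHE9), a sodium and proton exchanger of endosomes, lies on chromosome 9 at 94669909 to 95230445 on the plus strand. It measured 7.05, 8.09 and 4.75 FPKM in ABCs against 0.786, 1.08 and 0.822 FPKM in FO B (Aged), a log2 fold change of 1.99 (SE 0.19, FDR = 0.000571), with 560 whole reads against 80. The Golgi exchanger Slc9a7 rose from 39.4 ± 0.916 to 56.2 ± 1.85 FPKM (log2 fold change 0.50, SE 0.06, FDR = 0.00123). Slc4a11 measured 0.886 ± 0.257 FPKM in ABCs against 4.66 ± 0.497 FPKM in FO B (Aged), a log2 difference of -1.59. The potassium and chloride cotransporter Slc12a7 measured 0.297, 0.381 and 0.491 FPKM in ABCs against 2.85, 1.95 and 2.28 FPKM (log2 difference -1.27). The bicarbonate cotransporter Slc4a7 measured 8.78, 8.53 and 6.64 FPKM against 12.004, 10.8 and 12.6 FPKM (log2 fold change -0.52, SE 0.13, FDR = 0.0202), a call lost in 3 of 17 alternatives: scaling to the upper quartile and the removal of FO B (Aged) library 1 or 3. The related cotransporter Slc12a2 was below the floor, at 1.02 ± 0.300 and 0.7503 ± 0.233 FPKM.

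Vitamin, choline, lipid and organic ion carriers counted 5 higher and 1 lower of 15 (33.3% and 6.67%, against 18.7% and 16.7% of all genes), and 4 higher and 1 lower of 14 without Slc22a17, which passed the floor through ABCs. Without ABCs library 1, 2 or 3 the counts were 3 higher and 0 lower, 2 higher and 1 lower, and 3 higher and 1 lower. The choline carrier Slc44a1 measured 13.7, 11.6 and 15.0 FPKM in ABCs against 3.13, 3.44 and 3.38 FPKM in FO B (Aged), a log2 fold change of 1.73 (SE 0.12, FDR = 0.000183). Its abundant relative Slc44a2 rose from 170.4 ± 8.73 to 206 ± 10.4 FPKM (log2 fold change 0.27, SE 0.07, FDR = 0.0203), a call lost in 5 of 17 alternatives, among them the removal of ABCs library 1 or 2 or FO B (Aged) library 2 or 3. The folate importer Slc19a1 measured 10.1 ± 2.04 and 12.8 ± 0.942 FPKM (FDR = 0.138), the ascorbate importer Slc23a2 9.74 ± 2.14 and 9.54 ± 0.7495 FPKM (FDR = 0.977), and the riboflavin carrier Slc52a3 fell from 2.25 ± 0.149 to 1.201 ± 0.344 FPKM (log2 fold change -0.58, FDR = 0.0269).

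Among the 5 nucleoside carriers, Slc29a3 was higher and Slc29a4 lower (20% each, against 18.7% and 16.7% of all genes), and 2 were lower without ABCs library 1 or library 2. Without Slc29a2 and Slc29a4, which passed the floor through FO B cells, 1 of 3 was higher and 0 lower. Slc29a4 (PMAT), which carries monoamines and adenosine, measured 0.0472, 0.257 and 0.187 FPKM in ABCs against 2.14, 1.84 and 3.01 FPKM in FO B (Aged), or 11 against 161 whole reads, with a log2 difference of -1.51. The equilibrative carrier Slc29a1 measured 12.2, 15.6 and 5.24 FPKM against 12.5, 14.8 and 8.76 FPKM (FDR = 0.702), with the groups overlapping. Slc17a9, which loads ATP into vesicles, measured 7.05, 6.38 and 3.71 FPKM in ABCs against 15.0, 14.5 and 18.6 FPKM in FO B (Aged), a log2 fold change of -1.37 (SE 0.22, FDR = 0.00387). The phosphate importers Slc20a2 (14.2 ± 1.58 against 7.27 ± 0.740 FPKM, FDR = 0.00191) and Slc20a1 (19.3 ± 4.28 against 14.5 ± 1.01 FPKM, FDR = 0.0963) differed in whether they were called, and the difference between them was not tested. Of the 4 genes that are not transporters, the scaffold protein gene Slc9a3r1 was called, at 75.5 ± 5.40 against 50.7 ± 2.37 FPKM.

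**Figure D4:**
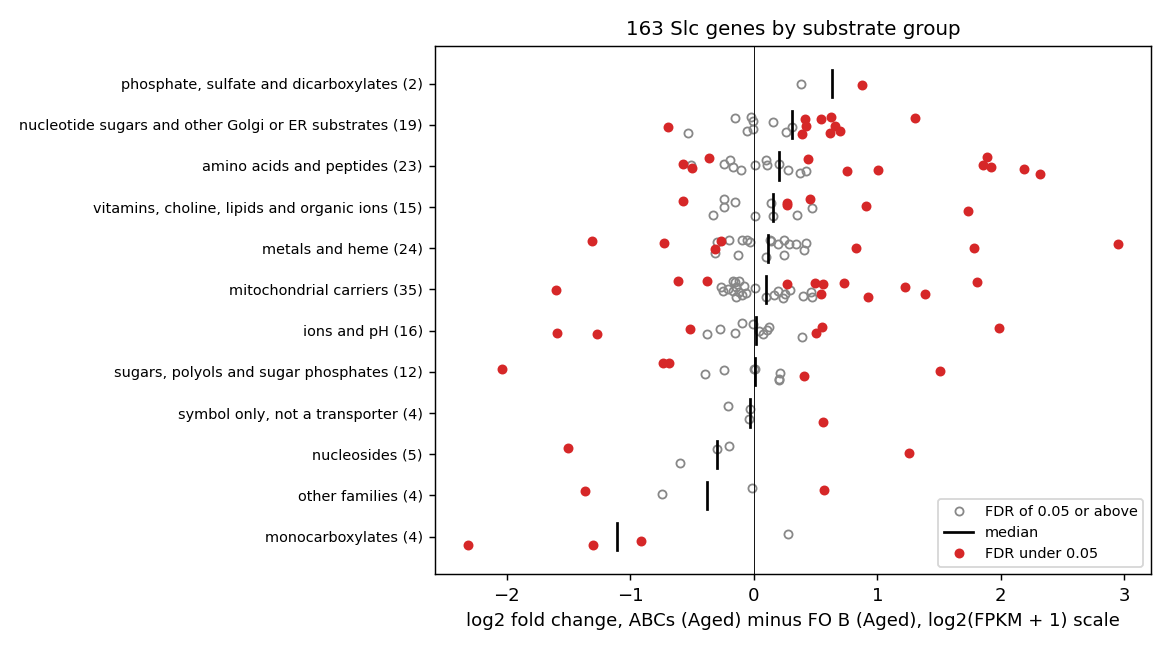
Log2 fold changes of the 163 Slc genes between ABCs and FO B (Aged), on the log2(FPKM + 1) scale, by substrate group with the number of genes in brackets (filled, FDR under 0.05; open, FDR of 0.05 or above; black bar, median of the group). Groups are ordered by median. Monocarboxylate carriers lie lowest, at a median of -1.11, and the Slc35 group is mostly to the right of 0.

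Promoter sequence is shown for genes among the largest changes, to give the context of their start sites. RefSeq listed a promoter window of 300 bases, 250 before and 50 after the start, for 121 of the 163 genes. Among the named rises and falls with a single listed start, the first 2 rises and the first fall are shown on GRCm38.p6, 5′ to 3′ on the gene's strand, with every match to the searched motifs in capitals.
Slc43a1, chr2:84840073-84840372, plus strand: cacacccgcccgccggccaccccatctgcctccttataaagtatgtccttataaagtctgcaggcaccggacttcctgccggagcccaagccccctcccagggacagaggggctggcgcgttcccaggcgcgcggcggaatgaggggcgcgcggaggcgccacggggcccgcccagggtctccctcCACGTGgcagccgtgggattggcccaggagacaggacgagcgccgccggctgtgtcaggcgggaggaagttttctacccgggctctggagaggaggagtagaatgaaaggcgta
Slc9a9, chr9:94669642-94669941, plus strand: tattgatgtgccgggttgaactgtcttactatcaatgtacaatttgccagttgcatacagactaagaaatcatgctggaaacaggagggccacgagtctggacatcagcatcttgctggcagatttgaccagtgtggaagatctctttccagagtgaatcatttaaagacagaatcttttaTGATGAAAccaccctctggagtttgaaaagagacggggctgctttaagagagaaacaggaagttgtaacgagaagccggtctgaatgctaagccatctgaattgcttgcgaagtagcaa
Slc29a4, chr5:142701851-142702150, plus strand: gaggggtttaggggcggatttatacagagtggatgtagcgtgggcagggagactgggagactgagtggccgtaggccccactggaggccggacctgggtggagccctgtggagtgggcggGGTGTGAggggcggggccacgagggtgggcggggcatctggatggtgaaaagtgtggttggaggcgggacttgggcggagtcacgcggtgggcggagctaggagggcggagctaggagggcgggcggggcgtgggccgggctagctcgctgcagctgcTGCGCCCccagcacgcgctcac
The capitals mark an E-box (CACGTG) in Slc43a1, the core of the amino acid response element (TGATGNAA) in Slc9a9, and the T-box site (GGTGTGA) and the core of the metal response element (TGCGCNC) in Slc29a4, each searched on both strands. The E-box stood in 12.2% of 49 promoters of genes higher in ABCs, 4 of 16 of genes lower, 14.9% of those of genes not called and 7.15% of all 32851 promoters. The T-box site stood in 8.16%, 6.25%, 0.99% and 3.98% of these, the metal response core in 24.5%, 31.2%, 24.8% and 15.4%, and the amino acid response core in 6.12%, 0%, 0.99% and 3.97%. Genes with several listed starts count once per start, and no test was run on these shares.

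The second comparison asked whether Slc expression of FO B cells changes with the age of the mouse. With the same fit, 0 of 163 genes were called between FO B (Aged) and FO B (Young), against 0.376% of all genes tested (39 of 10375). At an unadjusted p under 0.05 from limma there were 23 (14.1%, against 12.9% of all genes), 10 higher (6.13%, against 7.06%) and 13 lower with age (7.98%, against 5.85%). The 3 libraries of each age did not overlap for 17 genes higher (10.4%, against 9.66% of all genes) and 19 lower with age (11.7%, against 8.86%). The largest fitted rise was the peptide importer Slc15a2, at 4.72, 4.07 and 3.32 FPKM in FO B (Aged) against 2.84, 0.569 and 0.804 FPKM in FO B (Young), a log2 difference of 1.18 (SE 0.32, FDR = 0.210). The magnesium carrier Slc41a2 measured 9.65, 6.87 and 5.81 FPKM against 4.47, 4.74 and 3.76 FPKM (log2 difference 0.64, FDR = 0.207), and Slc35e4 had a log2 difference of 0.44 (FDR = 0.340).

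On the lower side, the iron exporter Slc40a1 (ferroportin) measured 0.349, 0.701 and 1.099 FPKM in FO B (Aged) against 1.95, 1.72 and 2.11 FPKM in FO B (Young), a log2 difference of -0.79. Slc40a1 had passed the floor only through FO B (Young), so this difference is a description. Its level in ABCs was 1.23, 0.661 and 0.724 FPKM, which overlapped FO B (Aged). The urea carrier Slc14a1 measured 7.59, 14.7 and 9.81 FPKM against 16.4, 15.6 and 18.2 FPKM (log2 difference -0.64, FDR = 0.265), and Slc25a43 0.990 ± 0.105 against 1.90 ± 0.397 FPKM (log2 difference -0.54, FDR = 0.181). For Slc15a2, Slc41a2, Slc40a1, Slc14a1 and Slc25a43 all libraries of one age lay on one side of the other, but an exact two-sided permutation test of 3 against 3 libraries cannot give a p below 0.1, and none of them passed the test across genes.

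Set against FO B (Young), ABCs differed in 84 Slc genes (51.5%, against 40.2% of all genes tested), 52 higher (31.9%, against 20.9%) and 32 lower (19.6%, against 19.3%). With an FDR under 0.01 there were 44 (27%, against 22.8% of all genes), 29 higher and 15 lower. This comparison shares the ABC libraries with the first, so the values are given side by side and not as independent evidence. Slc39a4 had a log2 fold change of 2.88 against the young and 2.95 against the aged FO B cells, Slc6a12 2.41 and 2.31, Slc2a3 -2.26 and -2.04, and Slc16a6 -2.57 and -2.31. Slc14a1 (log2 fold change -1.39, FDR = 0.0094) and Slc15a2 (1.60, FDR = 0.0217) were called against the young FO B cells and not against the aged.

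Other genes that work with these carriers were taken from lists of related pathways, and each count of them stands against 18.7% higher and 16.7% lower over all genes tested. These lists too were chosen with earlier results of these data known, so their shares are a description. Of 16 tested ATP-binding cassette transporters, which pump by hydrolysing ATP, 5 were higher and 2 lower in ABCs (31.2% and 12.5%), or 4 and 2 of 15 without Abcb1b, which passed the floor through ABCs. Abcb1b measured 9.36, 7.92 and 10.96 FPKM against 0.475, 0.855 and 0.924 FPKM, and the cholesterol exporter Abca1 measured 1.28, 1.92 and 1.48 FPKM against 8.94, 12.9 and 11.2 FPKM. Of 15 tested transporters without an Slc symbol, 6 were higher and 3 lower (40% and 20%), among them Unc93b1, the chaperone of nucleic acid-sensing Toll-like receptors (log2 fold change 0.95, SE 0.08, FDR = 0.000346), and the sphingosine phosphate exporter Spns2 (-1.32, SE 0.13, FDR = 0.000536). Of 9 other mitochondrial transport genes, 4 were higher and 1 lower (44.4% and 11.1%), with the calcium uniporter Mcu at 1.26 and the pyruvate carrier subunit Mpc1 at -0.78 on the log2 scale.

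Beside the fall of both mitoferrins, 3 of 9 iron handling genes were higher and 2 lower (33.3% and 22.2%), with the heme oxygenase Hmox1 at 1.96 and the transferrin receptor Tfrc at -1.18 on the log2 scale. Beside the zinc importers, 1 of 3 tested zinc handling genes was higher, the metallothionein Mt1, at 3.34, 10.8 and 6.63 FPKM in ABCs against 0, 0.616 and 0.685 FPKM in FO B (Aged). Of 9 tested genes of the amino acid stress response, 3 were higher and 2 lower (33.3% and 22.2%), and 2 and 1 of 7 without Asns and Ddit4, which passed the floor through one cell type. The rises included Sesn2, a leucine sensor (log2 fold change 2.06, SE 0.15, FDR = 0.000195), with Atf4 itself not called (log2 fold change -0.16, FDR = 0.125). Of 16 tested genes of lysosomal amino acid sensing upstream of mTORC1, 2 were higher and 3 lower (12.5% and 18.8%), near the shares over all genes. Basigin (Bsg), the chaperone of Slc16a1, was higher (log2 fold change 0.48, SE 0.06, FDR = 0.00148), the 1 call among 3 tested chaperones and heavy chains. In the aged against the young FO B cells, 0 genes of any of these 8 lists were called.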

How the data were processed

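RNA had been extracted with the miRNeasy Micro Kit, amplified as cDNA (SMART-Seq HT) and made into libraries by Nextera XT tagmentation, steps that do not mark strand. The authors deposited FPKM values, 1 file per library, computed from single-end reads on mm10. The submitters' processing notes name TopHat2 2.1.1, Bowtie2 2.2.8, SAMtools 0.1.18 and Cuffdiff 2.2.1, and the methods of the study name other versions and Cufflinks. The gene annotation and any scaling between libraries are not given in the sources used here.

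After a pseudocount of 1 FPKM and a log2 transform, the 10375 genes that averaged 1 FPKM or more were tested by limma 3.58.1 (R 4.3.3, empirical Bayes with a trend) on the 6 libraries of the 2 groups compared, with no covariate. A fold change so computed is too small for genes of low level. Genes were called at a Benjamini-Hochberg FDR under 0.05 over all genes tested. The Slc genes and the lists were chosen with earlier results of these data known. Genes were named by rule: the 12 largest rises and falls among called genes without overlap, the 3 largest rises and falls with age, the 10 highest levels and a list of carriers known in lymphocytes. Some genes that these rules name are not reported here, though counts include them. Others named as examples in a group were chosen after their values were seen. Substrate groups follow the family number, so that Slc43a3 stands with amino acid carriers and Slc5a6 with sugar carriers although they carry nucleobases and vitamins.

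Relative depth, and whole reads, came from the steps between low FPKM values for 18 of the 163 genes. The total of mapped reads is an approximation from annotated transcript lengths, and the counting interval of Slc2a3 (95%, exact) covers counting error only. Positions come from GENCODE M21 (GRCm38), which held all 163 symbols and in which 50 share exon bases with another gene, 6 of them at least 20%. Scripts in Python 3.11.15 (numpy 2.4.6, pandas 2.3.3, scipy 1.17.1, matplotlib 3.10.9) did the rest, and the fit was tested on simulated data. Alternatives were the pseudocount, the filter, the scaling, the trend, all libraries in 1 fit, a replicate block, and leaving out each library. Counts by substrate group without each ABC library, and without genes below 1 FPKM in ABCs or in both FO B groups, were chosen after seeing the data.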

Additional observations from a re-analysis of the deposited data

Results flagged for a closer look

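Of the 210 Slc symbols below the floor of 1 FPKM over all libraries, which entered no comparison, 10 reached a mean of 1 FPKM in ABCs, and for 7 of these every ABC library lay above every FO B library of either age. Because the ABC level was used to pick them out, no test is given. Slc12a8 had a mean of 2.26 FPKM in ABCs (1.80 to 2.80 FPKM) and at most 0.433 FPKM in an FO B library. The proton-coupled folate importer Slc46a1 had a mean of 1.87 FPKM (1.19 to 2.35 FPKM) and at most 1.09 FPKM in an FO B library. The bicarbonate cotransporter Slc4a8 had a mean of 1.27 FPKM (1.01 to 1.48 FPKM, against at most 0.793 FPKM). The phosphate importer Slc34a1 had a mean of 1.24 FPKM (0.552 to 2.40 FPKM, against at most 0.315 FPKM), with 90 whole reads over the ABC libraries and 3 over FO B (Aged). The glutamate importer Slc1a3 had a mean of 1.19 FPKM (0.717 to 1.68 FPKM, against at most 0.253 FPKM), with 120 whole reads against 6. The lactate exporter Slc16a3 had a mean of 1.14 FPKM (0.507 to 1.46 FPKM, against at most 0.465 FPKM), and Slc22a15 a mean of 1.05 FPKM (0.639 to 1.65 FPKM, against at most 0.172 FPKM).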

How the results depend on the processing

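The count of Slc genes called between ABCs and FO B (Aged), 66 as deposited, ran from 48 to 74 over the 17 alternatives in processing and was 45 at an FDR under 0.01, and that between aged and young FO B cells was 0 in each of them. Against FO B (Young) it was 84, and 44 at an FDR under 0.01. Genes past 2.3 on the log2 scale with an FDR under 0.01, 3 as deposited, numbered 8 and 9 with pseudocounts of 0.1 and 0.01, 1 without a filter and 1 with a floor of 5 FPKM, and 0 to 3 when single libraries were left out (0, 1 and 0 without FO B (Aged) library 1, 2 and 3). Of the 3, Slc39a4 and Slc6a12 had passed the floor through ABCs, so this count is a description. The median log2 fold change in ABCs was 0.04353 with a floor of 5 FPKM, -0.01542 after quantile normalization, 0.07347 after scaling to TPM and 0.22 after scaling to the upper quartile, and 0.05013 to 0.09563 without single libraries. The median with age was -0.1022 after scaling to the upper quartile, which moved that of all genes to -0.1157, and -0.01688 to 0.0162 without single libraries. The cause of these shifts was not tested. Libraries of the same replicate number correlated at -0.019 to 0.108 between ABCs and FO B (Aged), as deviations from their group means. Between aged and young FO B cells, which came from different mice, the range was -0.0921 to 0.138. With 3 libraries a group, such values cannot show whether ABCs and FO B (Aged) libraries came from the same mice. With a replicate block 56 genes were called in ABCs against FO B (Aged), 65 against FO B (Young) and 0 with age. For named genes, 65 tests lost their call and 16 gained one under an alternative, 1939 kept direction and side, and 83 changed sign, none of them called either way. Of the 27 named genes not called in ABCs against FO B (Aged), 14 changed sign under at least 1 alternative, among them Slc25a5, Slc25a3, Slc29a1 and Slc40a1, and with age 23 of 63 did. None of the 36 called in ABCs changed sign. Many of the 36 were named because they were called without overlap between the libraries of ABCs and FO B (Aged). For these, leaving out a library cannot change the sign. Some had also passed the floor only through ABCs or only through FO B cells. The result for the 36 is therefore a description and no test of their direction. At 3 libraries a group, a permutation test of 1 gene cannot pass 0.05.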
